A study of Caenorhabditis elegans with 8 samples.

Results

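The comparison of *mec-3(unk206)* animals with wild-type (WT) animals rested on 4 of the 16 libraries of the series, 2 of *mec-3(unk206)* and 2 of WT, taken by the strain named in the labels. The strain *mec-3(unk206); uIs115* carried a gene-edited *mec-3* locus in which the first pair of introns was deleted, so that exons 1, 2 and 3 were fused and only the long mec-3a isoform could be made. The WT strain had no other label of genotype than the reporter, and both strains carried *uIs115*, a transgene that drives a red fluorescent protein from the *mec-17* promoter and so labels the touch receptor neurons (TRNs). All animals were hatched in M9 after bleaching, fed OP50 bacteria, collected as whole worms at the L4 stage and extracted with TRIzol, and both libraries of a strain were biological replicates according to the methods of the study. The WT strain is known here from the labels only. Levels are also cited from L4 animals of *mec-3(u184)* and *mec-3(syb8382)*, both with *uIs134*, another insertion of the reporter. Further levels are from *mec-7(u278)* and *mec-7(u278)* *mbl-1(tm1563)*, both with *uIs115*. For reference, *mbl-1(tm1563); mec-3(unk206)* *uIs115* animals, called the double mutant here, and *mbl-1(tm1563)* *uIs115* animals gave the same contrast of the *mec-3* allele in another 4 libraries, in animals that lack the splicing regulator MBL-1/Muscleblind.

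*mec-3* codes for a LIM-homeodomain transcription factor that acts as the terminal selector of the TRNs, the neurons that sense gentle touch. Together with the POU-homeodomain protein UNC-86 it switches on the genes that give these neurons their microtubules, their mechanosensory channel and the extracellular matrix that attaches them to the skin, and at a lower level it is needed for the branched dendrites of the PVD neurons. The TRNs are few among the cells of a whole worm, so a whole-worm library reads their genes against the RNA of the skin, gut, muscle and germ line.

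The allele was defined by the joins between *mec-3* exons. The primers that tell the long from the short isoform, and the joins of the repaired locus, are given here because they show what distinguishes the strains. All are from the oligonucleotides designed for the study, are written 5′ to 3′ on the strand of the mRNA, and lie in *mec-3* on chromosome IV. Each primer has 20 bases, 15 of them in exon 1, and capitals mark the first bases of the exon that follows.
mec-3a primer across exons 1 and 2: gatcatgaaaatcagAACAA
mec-3d primer across exons 1 and 3: gatcatgaaaatcagATGGA
The joins of the *unk206* repair sequence are shown with 15 bases on each side, the downstream exon in capitals.
unk206 join of exons 1 and 2: gatcatgaaaatcagAACAAATGTAATTGC
unk206 join of exons 2 and 3: cgttatatttatcgaATGGACAATCGATCG
In the WBcel235 annotation *mec-3* spans IV:10458816-10461867 on the minus strand with 3 transcripts. Exon 2, which the short isoform skips, has 51 bases at IV:10461243-10461293, and the deleted introns have 395 and 141 bases. All 3 exons stay in the *unk206* locus, so a count over the exons of *mec-3* cannot check the allele.

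Library kind, stage markers and replicate spread all moved with the strains. The labels call all libraries strand-specific, but the second strand held 97.8% and 97.7% of the stranded counts in the *mec-3(unk206)* libraries, and 50.8% and 51.0% in the WT libraries, which were therefore unstranded. The kind of library and the allele cannot be told apart in this comparison, nor in that of the double mutant with *mbl-1(tm1563)*, where the same split was present. Genes of the adult skin and germ line also differed in level. The adult cuticle collagen *col-19* had 2362 and 2328 CPM (counts scaled to library size over all 16 libraries) in the *mec-3(unk206)* libraries, against 88.5 and 543 CPM in the WT libraries. Between the *mec-3(unk206)* libraries 37 genes were over 2-fold apart, against 1428 genes between the WT libraries. Gene totals were close, between 22296336 and 23180583 counts over the 16 libraries, and what part the library kind or the stage of the animals had in any difference was not tested.

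Over all genes, 9409 of 15124 tested (62.2%) differed between *mec-3(unk206)* and WT by edgeR's quasi-likelihood test at an adjusted p under 0.05. Of these, 4830 (31.9% of genes tested) were higher and 4579 (30.3%) were lower in *mec-3(unk206)*, and the median log2 fold change of *mec-3(unk206)* over WT was -0.04. These shares are the background for every count of called genes given for a gene group. Without overlap of the strains, 44.2% of tested genes were lower and 40.3% higher, the background for groups said not to overlap. The count fell to 3883 without *mec-3(unk206)* library 1 and to 3019 without library 2, where the spread came from the WT pair alone, while 10617 and 10942 genes were called without WT library 1 and without WT library 2. All calls shared with these fits kept their sign. Fitted together with the other strains the higher genes were fewer: 3434 higher and 4512 lower in one fit of 16 libraries, and 2762 higher and 4124 lower in one fit of 8 libraries.

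Part of the called genes also separated the remaining libraries by kind. Every strand-specific strain carried a *mec-3* mutation and no unstranded strain did. A gene said here to separate the other libraries by kind thus separates them by *mec-3* mutation as well, and these cannot be told apart. Of the genes called higher, 411 (8.51%) were higher in every one of the other 6 strand-specific libraries than in every one of the other 6 unstranded libraries, compared with 4.40% of all tested genes. Of those called lower, 449 (9.81%) were lower in the same way, compared with 3.93%. The called genes also differed in length, with a median exon length of 1158 bases for those higher, 1603.5 bases for those lower and 1355 bases over all tested genes.

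*mec-3* itself was low in all 4 libraries. It had 1.23 and 1.74 CPM in *mec-3(unk206)*, from 30 and 45 counts, against 2.87 and 2.18 CPM in WT, from 55 and 42 counts. The groups did not overlap, but the difference did not pass the test (log2 fold change -0.71, SE 0.36, adjusted p = 0.13). In the strains with other *mec-3* alleles, which carry another insertion of the reporter, *mec-3* had 0.135 and 0.132 CPM in *mec-3(u184)* and 0.529 and 0.494 CPM in *mec-3(syb8382)*.

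The terminal genes of the TRNs were lower in *mec-3(unk206)*, with *mec-15* as the exception. Of 16 such genes, all tested, 14 fell, 1 rose and 1 was not called, and their median log2 fold change was -1.92. Summed over the 16 genes, the level was 214 and 221 CPM in *mec-3(unk206)*, against 917 and 718 CPM in WT. The 2 strains did not overlap in this sum. Without *mec-3(unk206)* library 1 or 2, 8 and 9 of the 16 were called lower, and in the fits of 16 and of 8 libraries 13 were. In whole worms, fewer cells of a type and less RNA per cell cannot be told apart.

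The tubulins *mec-7* and *mec-12* were among the largest differences of the group. *mec-7*, the β-tubulin of the large microtubules of these neurons, had 33.7 and 30.7 CPM in *mec-3(unk206)*, against 214 and 150 CPM in WT (log2 fold change -2.45, SE 0.26, adjusted p = 0.0015). *mec-12*, the acetylated α-tubulin, had 49.6 and 47.9 CPM in *mec-3(unk206)*, against 342 and 255 CPM in WT (-2.57, SE 0.25, adjusted p = 0.0015). Per kilobase of exon *mec-12* was above *mec-7* in both strains, at 30.2 and 20.6 RPKM in *mec-3(unk206)* and 185 and 116 RPKM in WT. *mec-17*, the α-tubulin acetyltransferase whose promoter also drives the reporter, had 12.7 and 16.37 CPM in *mec-3(unk206)*, against 59.9 and 40.9 CPM in WT (-1.75, SE 0.28). Its call was lost without *mec-3(unk206)* library 1, and its exons overlap those of *arf-5* on the opposite strand, which held 18.1% of its counts in *mec-3(unk206)*. *ptl-1*, the Tau-like microtubule-associated protein, had 7.68 and 7.55 CPM in *mec-3(unk206)*, against 37.5 and 30.98 CPM in WT (-2.12, SE 0.22, adjusted p = 0.0015).

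**Figure D1:**
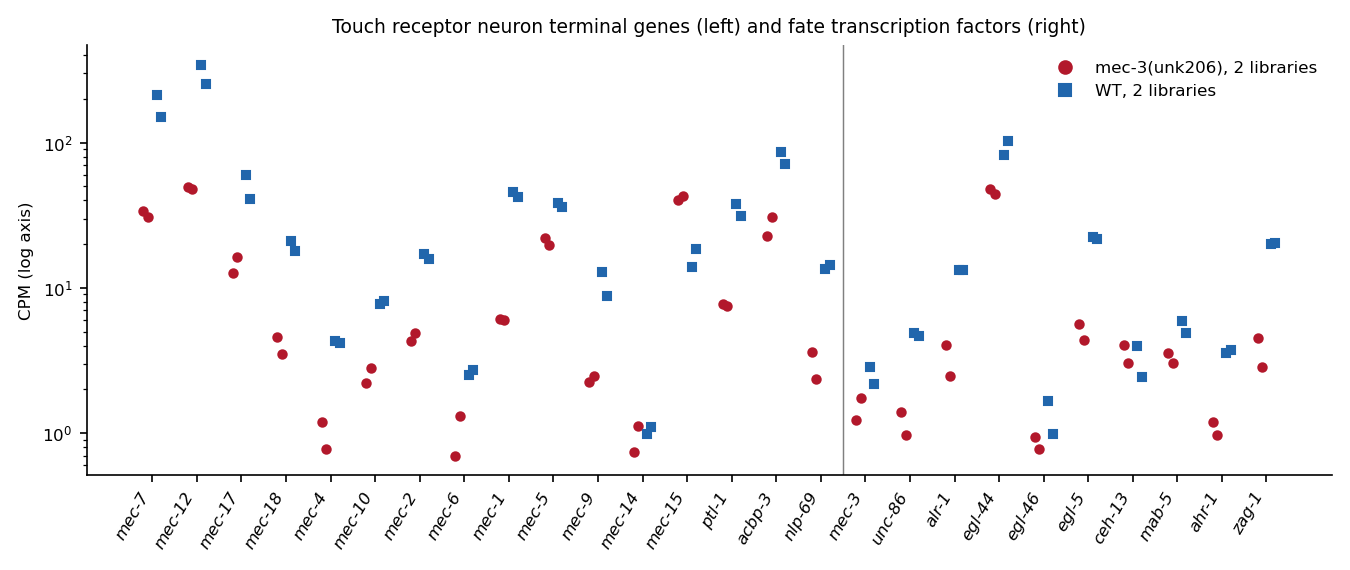
CPM on a log axis of the TRN terminal genes (left of the line) and the tested fate transcription factors (right of it), with 1 point per library (circles *mec-3(unk206)*, squares WT). Except for *mec-14* and *mec-15*, the circles of every terminal gene lie below both squares. Of all tested genes, 44.2% were lower and 40.3% higher without overlap of the strains. *mec-15* lies above at 40.2 and 42.99 CPM, against 13.9 and 18.5 CPM.

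The channel genes showed the same direction at lower levels. *mec-4*, the pore-forming DEG/ENaC subunit, had 1.19 and 0.774 CPM in *mec-3(unk206)*, against 4.33 and 4.16 CPM in WT (-2.05, SE 0.34). *mec-10*, the second pore subunit, had 2.22 and 2.79 CPM, against 7.71 and 8.11 CPM in WT (-1.60, SE 0.27). *mec-2*, the stomatin-like partner of the channel, had 4.27 and 4.88 CPM, against 17.04 and 15.9 CPM in WT (-1.79, SE 0.24). No library of one strain reached the range of the other for these genes, as held for most tested genes (44.2% lower, 40.3% higher). *mec-6*, a paraoxonase-like chaperone of the channel, had 0.698 and 1.32 CPM in *mec-3(unk206)*, against 2.50 and 2.703 CPM in WT (-1.30, SE 0.39), but 86.9% of its counts in *mec-3(unk206)* lay on the opposite strand, where *lbp-6* overlaps it. The calls of *mec-10* and *mec-6* were lost without either *mec-3(unk206)* library and that of *mec-4* without library 2. *mec-6* was not called by DESeq2 or in the fit of 8 libraries either, and it separated the other libraries by kind.

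The matrix genes that anchor the TRN processes fell as well. *mec-1*, an extracellular protein with EGF and Kunitz domains, had 6.08 and 6.04 CPM in *mec-3(unk206)*, against 45.6 and 42.4 CPM in WT, the largest fall of the group (-2.81, SE 0.20, adjusted p = 0.0014). It also separated the other strand-specific from the other unstranded libraries, and its exons overlap those of *ptr-15* on the opposite strand. *mec-9*, another Kunitz and EGF protein, differed by -2.14 (SE 0.33) and *mec-5*, a collagen of the touch matrix, by -0.78 (SE 0.18), and both lost the call without either *mec-3(unk206)* library. The remaining members had no shared role. *mec-18*, an acyl-CoA synthetase-like protein, had 4.60 and 3.48 CPM in *mec-3(unk206)*, against 21.2 and 18.04 CPM in WT (-2.23, SE 0.27). The neuropeptide gene *nlp-69* (-2.16, SE 0.29) and the acyl-CoA binding protein gene *acbp-3* (-1.50, SE 0.24) fell too, the call of *acbp-3* not without *mec-3(unk206)* library 1. *mec-14*, an aldo-keto reductase-like gene, did not pass the test (-0.10, SE 0.38, adjusted p = 0.84). The F-box gene *mec-15* was higher in *mec-3(unk206)*, at 40.2 and 42.99 CPM, against 13.9 and 18.5 CPM in WT (1.42, SE 0.20, adjusted p = 0.0023).

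TRN gene levels also varied between the other strains. *mec-7* had 8.41 and 7.97 CPM in the double mutant, against 31.9 and 61.3 CPM in *mbl-1(tm1563)*. In *mec-7(u278)*, where *mec-7* itself is mutated and *mec-3* is not, *mec-7* had 47.0 and 98.5 CPM. In each of the 4 unstranded strains the library with more *col-19* had less *mec-7*, and this held in 2 of the 4 strand-specific strains. The range of the summed TRN genes was 143 to 188 CPM in the other strand-specific libraries and 141 to 575 CPM in the other unstranded ones.

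The study used *mec-3(u184)* as a null allele, and *mec-3(syb8382)* lacks exon 2 and so the long isoform only. Of the 16 TRN terminal genes, 11 were higher in both *mec-3(unk206)* libraries than in all 4 libraries of these strains. *mec-5* was lower and 4 overlapped. The gap differed between genes. *mec-18* had 4.60 and 3.48 CPM in *mec-3(unk206)*, against 0.316 to 0.397 CPM in those 4 libraries. *mec-17* had 12.7 and 16.37 CPM, against 2.25 to 3.26 CPM there, and *mec-4* 1.19 and 0.774 CPM, against 0.044 to 0.353 CPM. *ptl-1* was close, at 7.68 and 7.55 CPM, against 7.0 and 7.24 CPM in *mec-3(u184)*. So was *mec-12*, at 49.6 and 47.9 CPM, against 42.1 and 43.6 CPM in *mec-3(u184)*. *acbp-3* had 22.6 and 30.8 CPM, against 41.8 and 37.4 CPM in *mec-3(u184)*. These libraries were all strand-specific, but the strains carried different reporter insertions, and no test was made here. The share of all tested genes above or below those 4 libraries was not counted, so the 11 cannot be read as particular to TRN genes.

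The transcription factors that act in TRN fate were lower or not called. Of the 11 listed, *lin-32* was not tested (3 and 3 counts in *mec-3(unk206)*, 4 and 2 in WT), 6 of the 10 tested fell, none rose, and the median log2 fold change was -1.32. *unc-86*, the partner of *mec-3*, had 1.40 and 0.967 CPM in *mec-3(unk206)*, against 4.90 and 4.68 CPM in WT (-1.96, SE 0.32). *zag-1*, a zinc-finger homeodomain repressor, had 4.48 and 2.86 CPM, against 20.1 and 20.5 CPM in WT (-2.41, SE 0.28, adjusted p = 0.0017), and the Hox gene *egl-5*, which acts in the posterior PLM neurons, 5.67 and 4.37 CPM, against 22.4 and 21.6 CPM in WT (-2.08, SE 0.24, adjusted p = 0.0016). The homeodomain gene *alr-1* (-1.97, SE 0.31), the TEAD gene *egl-44* (-0.95, SE 0.18) and the aryl hydrocarbon receptor gene *ahr-1* (-1.70, SE 0.30) fell in the full comparison. Values of *egl-46* (-0.58), *mab-5* (-0.66), *ceh-13* (0.19) and *mec-3* did not pass. Of the 6 calls, 4 held without *mec-3(unk206)* library 1 and 2 without library 2: those of *unc-86* and *alr-1* needed library 2, those of *egl-44* and *ahr-1* needed both.

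Genes of the PVD dendrites were lower in both *mec-3(unk206)* libraries than in both WT libraries for 12 of 12 tested, where 44.2% of all tested genes were lower and 40.3% higher in this way, and 6 of the 12 passed the test. *tiam-1*, a Rac exchange factor of the dendrites, had 3.08 and 3.56 CPM in *mec-3(unk206)*, against 15.9 and 18.04 CPM in WT (-2.29, SE 0.24, adjusted p = 0.0015). The fusogen gene *eff-1* had 4.19 and 2.55 CPM, against 15.9 and 15.3 CPM in WT (-2.16, SE 0.31, adjusted p = 0.0026). The guidance genes *unc-6* (netrin, -1.73, SE 0.25) and *unc-5* (netrin receptor, -1.10, SE 0.25), the proprotein convertase gene *kpc-1* (-1.03, SE 0.24) and the skin ligand gene *mnr-1* (-0.65, SE 0.19) fell as well. The receptor gene *dma-1* had 0.739 and 1.28 CPM, against 2.29 and 1.98 CPM in WT, and the claudin-like gene *hpo-30* 0.493 and 0.851 CPM, against 1.15 and 0.936 CPM in WT, and neither passed. The count was 4 without *mec-3(unk206)* library 1 and 2 without library 2, when only *tiam-1* and *eff-1* were called in both.

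Of the 8 DLK-1 pathway genes, 5 fell and 2 rose, with a median of -1.05. The MAP kinase cascade of *dlk-1*, *mkk-4* and *pmk-3* acts on microtubules and regrowth in these neurons, and the ubiquitin ligase RPM-1 with its F-box partner FSN-1 removes DLK-1. The kinase gene *mak-2* had 28.0 and 26.1 CPM in *mec-3(unk206)*, against 96.99 and 103 CPM in WT (-1.83, SE 0.17, adjusted p = 0.0014). *dlk-1* itself (-1.11, SE 0.19), *pmk-3* (-1.0, SE 0.17), the transcription factor gene *cebp-1* (-1.29, SE 0.21) and *rpm-1* (-1.34, SE 0.21) also fell, and *mkk-4* (-0.61, adjusted p = 0.06) did not pass. *fsn-1* had 48.8 and 47.1 CPM in *mec-3(unk206)*, against 18.6 and 24.4 CPM in WT (1.22, SE 0.19, adjusted p = 0.003), and the ubiquitin-conjugating variant gene *uev-3* differed by 1.09 (SE 0.24). Without *mec-3(unk206)* library 1 the counts were 3 lower and 1 higher, and without library 2 they were 1 and 1: the calls of *mak-2* and *fsn-1* held in both.

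Among 9 neuronal and muscle splicing factors 5 fell and none rose, with a median of -0.53. *mec-8*, the RBPMS homolog that splices *mec-2*, had 17.3 and 14.9 CPM in *mec-3(unk206)*, against 75.05 and 70.6 CPM in WT (-2.12, SE 0.19, adjusted p = 0.0014). *exc-7*, an ELAV-like gene, had 15.2 and 10.5 CPM, against 66.3 and 46.3 CPM in WT (-2.09, SE 0.30, adjusted p = 0.0025). The calls of *fox-1* (-1.23, SE 0.27) and the CELF gene *etr-1* (-0.68, SE 0.18) were lost without either *mec-3(unk206)* library. *mbl-1*, whose protein promotes the long *mec-3* isoform, had 46.2 and 38.9 CPM in *mec-3(unk206)*, against 57.7 and 70.3 CPM in WT (-0.53, SE 0.18, adjusted p = 0.046), a call that was lost without either *mec-3(unk206)* library, without WT library 2 and in 8 other alternatives, among them RLE size factors, DESeq2 and the fits of 16 and of 8 libraries. *unc-75*, *sup-12*, *asd-1* and *ptb-1* did not pass, and 2 calls of the list remained without *mec-3(unk206)* library 1 and 2 without library 2.

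General neuronal genes were lower too. Of 20 pan-neuronal genes of synapses and neuropeptide processing, 13 fell and none rose, with a median of -1.14, and their sum was 784 and 683 CPM in *mec-3(unk206)*, against 1567 and 1536 CPM in WT. *syd-2*, the liprin-α of the active zone, had 11.7 and 11.8 CPM in *mec-3(unk206)*, against 44.4 and 40.4 CPM in WT (-1.80, SE 0.19). *egl-21*, the carboxypeptidase of neuropeptide processing, had 77.2 and 66.5 CPM, against 267 and 240 CPM in WT (-1.77, SE 0.21), and the synaptic vesicle kinesin gene *unc-104* 23.2 and 24.5 CPM, against 63.7 and 72.4 CPM in WT (-1.45, SE 0.17). These 3 calls and that of *ida-1* held without any 1 library. *snb-1*, *unc-119* and *maco-1* did not pass, with log2 fold changes of -0.36, -0.39 and 0.41. The summed TRN genes made 0.273 and 0.324 of the summed pan-neuronal genes in *mec-3(unk206)*, against 0.585 and 0.468 in WT. This gap rested on the tubulins *mec-7* and *mec-12*, which made 556 and 405 CPM of the TRN sum in WT: without them, a choice made after seeing the data, the ratio was 0.167 and 0.209 in *mec-3(unk206)*, against 0.230 and 0.204 in WT, and the strains overlapped. In the *mbl-1* background the ratio over all 16 genes was 0.247 and 0.225 in the double mutant, against 0.278 and 0.310 in *mbl-1(tm1563)*, and without these tubulins the strains overlapped there as well. The count of pan-neuronal genes called lower was 8 without *mec-3(unk206)* library 1 and 5 without library 2.

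The tubulins as a family, *mec-7* and *mec-12* included, had 11 of 15 tested members lower and 2 higher (median -0.79). *tbb-4*, a β-tubulin of ciliated neurons, had 0.945 and 0.851 CPM in *mec-3(unk206)*, against 6.51 and 4.47 CPM in WT (-2.56, SE 0.36), and the general β-tubulin *tbb-2* 1150.3 and 1016 CPM, against 2101 and 1698 CPM in WT (-0.76, SE 0.24). γ-tubulin *tbg-1*, of the centrosome, was higher, at 56.7 and 63.8 CPM, against 25.3 and 27.7 CPM in WT (1.24, SE 0.17, adjusted p = 0.0024), and so was *tba-9* (1.58, SE 0.28). The counts were 4 lower and 2 higher without *mec-3(unk206)* library 1, and 2 and 1 without library 2. The general α-tubulin gene *tba-1* did not pass (-0.48, SE 0.25).

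Neuropeptide genes went in both directions. Among 30 tested FMRFamide-like peptide genes 16 fell and 2 rose, among 59 tested neuropeptide-like protein genes 31 fell and 13 rose, and among 17 tested insulin-like peptide genes 4 fell and 8 rose. *flp-20*, a TRN-expressed peptide gene, had 5.05 and 4.10 CPM in *mec-3(unk206)*, against 17.6 and 18.5 CPM in WT (-1.92, SE 0.23). *flp-18* and *flp-17* were the pair that rose, by 1.18 (SE 0.28) and 1.13 (SE 0.37), and both calls were lost without either *mec-3(unk206)* library. *nlp-12*, which acts in the stretch-sensing DVA neuron, had 17.5 and 11.1 CPM, against 117 and 120 CPM in WT (-2.99, SE 0.27), while the antimicrobial skin peptide gene *nlp-28* had 25.9 and 20.1 CPM, against 1.72 and 2.49 CPM in WT (3.51, SE 0.28). *nlp-28* also separated the other strand-specific from the other unstranded libraries. *ins-12* had 3 counts in all in *mec-3(unk206)* and 72 in WT, a ratio of 31.4 (exact 95% binomial interval 10.3 to 156, for counting error only) by which it was lower in *mec-3(unk206)*, and it also separated the other libraries by kind. Without *mec-3(unk206)* libraries 1 and 2 in turn, the calls lower were 8 and 5 for the FMRFamide-like, 15 and 11 for the neuropeptide-like and 3 and 2 for the insulin-like genes, and the calls higher were 0 and 0, 4 and 5, and 0 and 0.

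**Figure D2:**
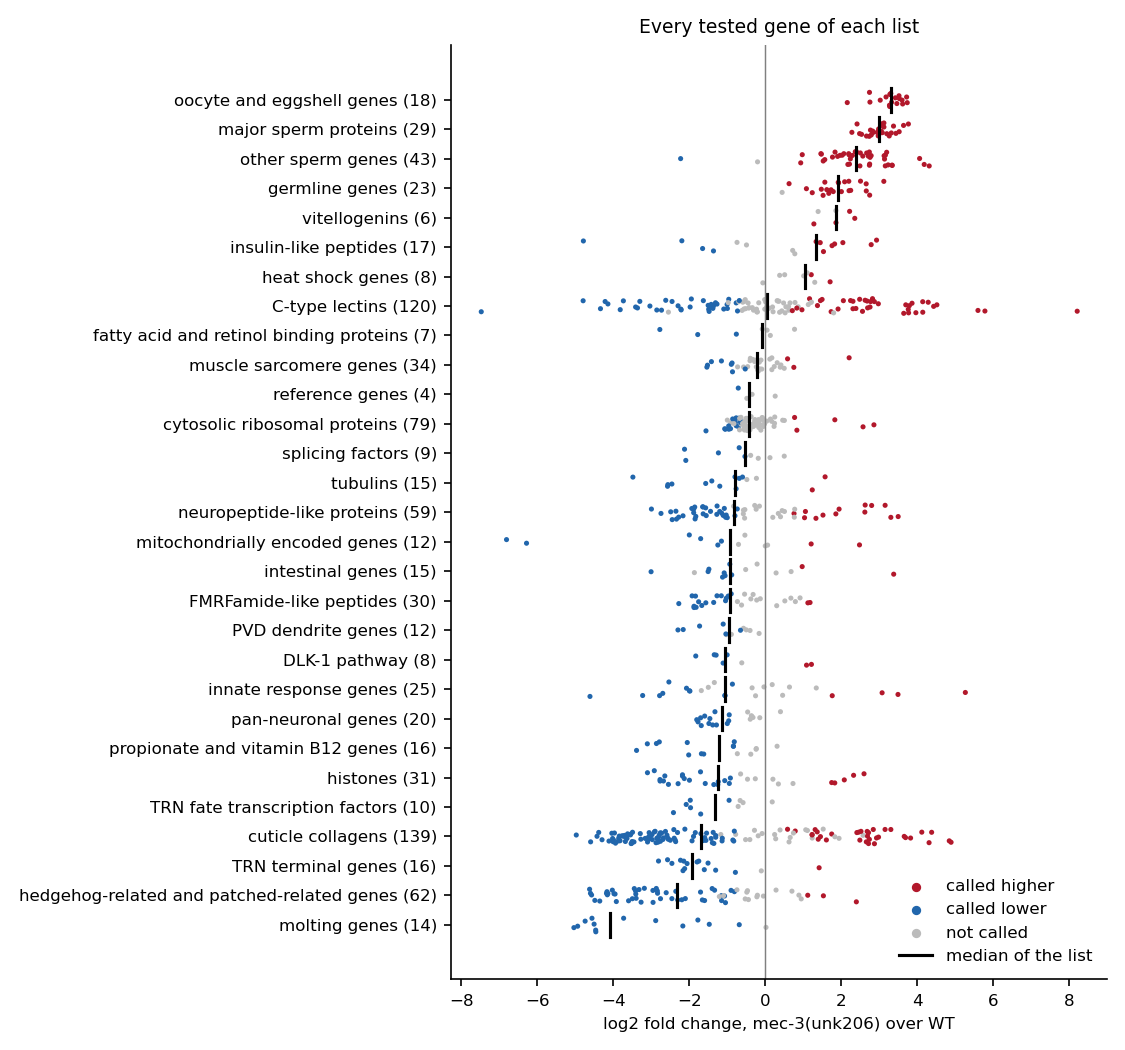
Log2 fold change of *mec-3(unk206)* over WT for every tested gene of each list, with 1 point per gene (number tested in brackets), ordered by the list median (black bar). Medians run between -4.09 for molting genes and 3.32 for oocyte and eggshell genes, and the median of all tested genes was -0.04.

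The skin genes of the molting cycle were the lowest group. Nematodes make a new cuticle before each molt, and the genes for it are switched on in waves once per larval stage. Of 14 molting genes 13 fell, with a median of -4.09 and a sum of 313 and 257 CPM in *mec-3(unk206)*, against 4280 and 3466 CPM in WT. *mlt-11*, a protease inhibitor of the cuticle, had 34.0 and 24.2 CPM in *mec-3(unk206)*, against 1002 and 976 CPM in WT (-5.04, SE 0.28, adjusted p = 0.0014). The zona pellucida domain gene *noah-1*, of the precuticle, had 21.97 and 18.9 CPM, against 711 and 585 CPM in WT (-4.94, SE 0.26). The nuclear receptor gene *nhr-25* fell by 2.88 on the log2 scale (SE 0.25), and *nhr-23*, the receptor that drives molting gene expression, was the one not called, at 56.6 and 43.1 CPM, against 43.3 and 59.0 CPM in WT (0.02, SE 0.22). Without *mec-3(unk206)* library 1 and without library 2, 11 were called lower, and 12 were in the fits of 16 and of 8 libraries. The sum was 251 to 677 CPM in the other strand-specific libraries and 203 to 5142 CPM in the other unstranded ones.

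Hedgehog-related and patched-related genes, many of them expressed in the skin with the molts, had 45 of 62 tested members lower and 3 higher, with a median of -2.33. *grl-7* had 17.99 and 15.4 CPM in *mec-3(unk206)*, against 382 and 229 CPM in WT (-4.15, SE 0.35), *grd-2* had 3.82 and 3.64 CPM, against 74.8 and 61.4 CPM in WT (-4.14, SE 0.23), and the patched-related gene *ptr-1* had 5.05 and 5.46 CPM, against 66.6 and 51.9 CPM in WT (-3.44, SE 0.24). The members that rose were *grd-3* (1.12, SE 0.18), *grd-4* (2.40, SE 0.59) and *ptr-13* (1.54, SE 0.42). The counts were 37 lower and 2 higher without *mec-3(unk206)* library 1, and 34 and 1 without library 2.

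The cuticle collagens divided into members that were higher and members that were lower, while their total after TMM scaling was close in both strains. Of 139 tested, 85 fell and 34 rose, with a median of -1.69. The sum over the family was 59723 and 58669 CPM in *mec-3(unk206)*, against 57410 and 50566 CPM in WT. On this scale all tested genes summed to 917409 and 867955 CPM in *mec-3(unk206)*, against 1207510 and 1179850 CPM in WT. As a share of the counts of all tested genes the collagens were therefore higher in *mec-3(unk206)*. The 34 called higher summed to 46136 and 46430 CPM in *mec-3(unk206)*, against 3722 and 12353 CPM in WT, and the 85 called lower to 5657 and 4555 CPM, against 50269 and 31640 CPM. Called members lay between 0.59 and 4.90 in the first set and between -4.97 and -0.81 in the second. *rol-6* had 40.1 and 30.6 CPM in *mec-3(unk206)*, against 521 and 303 CPM in WT (-3.50, SE 0.36), *bli-1*, a strut collagen, 34.0 and 25.6 CPM, against 918 and 565 CPM (-4.60, SE 0.37), and *dpy-7*, a furrow collagen, 10.6 and 7.70 CPM, against 123 and 93.2 CPM (-3.52, SE 0.28). Among the higher ones were the adult collagens *col-19* (2.99, SE 0.77, adjusted p = 0.017) and *col-124*, with 4984 and 5216 CPM in *mec-3(unk206)*, against 167 and 1052 CPM in WT (3.16, SE 0.79). Neither *col-19* nor *col-124* was called without either *mec-3(unk206)* library or in the fits of 16 and of 8 libraries. The collagens called were 73 lower and 8 higher without *mec-3(unk206)* library 1, 65 and 5 without library 2, 75 and 10 in the fit of 16 libraries, and 79 and 11 in that of 8.

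Genes of the hermaphrodite germ line were higher in *mec-3(unk206)*. L4 animals are making sperm, and oogenesis follows toward adulthood. Of 23 germline genes 22 rose and none fell (median 1.93), and *csr-1* was not called (0.45, SE 0.18). The synaptonemal complex gene *syp-2* had 28.8 and 32.1 CPM in *mec-3(unk206)*, against 4.59 and 5.41 CPM in WT (2.67, SE 0.21, adjusted p = 0.0014). The translational regulator *fbf-1* of the germline stem cells had 33.3 and 30.4 CPM, against 6.62 and 7.74 CPM in WT (2.21, SE 0.19), and *gld-1*, an RNA-binding regulator of meiosis and oogenesis, 700 and 566 CPM, against 66.9 and 167 CPM in WT (2.51, SE 0.42). *fbf-1* also separated the other libraries by kind. The 22 calls became 17 without *mec-3(unk206)* library 1 and 17 without library 2, 14 in the fit of 16 libraries and 5 in that of 8.

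Oocyte and eggshell genes had the highest median, 3.32, and all 18 rose in this comparison. Their sum was 5004 and 4128 CPM in *mec-3(unk206)*, against 157 and 858 CPM in WT, and WT library 2 was itself above WT library 1 by a median of 2.30 on the log2 scale. *oma-1*, a zinc-finger regulator of oocyte maturation, had 140 and 120 CPM in *mec-3(unk206)*, against 6.67 and 21.1 CPM in WT (3.31, SE 0.50). The yolk receptor gene *rme-2* had 235.0 and 187 CPM, against 7.77 and 38.6 CPM in WT (3.28, SE 0.69), and *egg-3*, of the egg-to-embryo transition, 64.4 and 59.5 CPM, against 2.55 and 8.73 CPM in WT (3.54, SE 0.51). *cav-1* had 54 counts in *mec-3(unk206)* and 3 in WT, which gave a ratio of 13.8 (interval 4.47 to 68.9). The 18 calls became 4 without *mec-3(unk206)* library 1 and 4 without library 2, and 12 and 3 in the fits of 16 and of 8 libraries.

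Sperm genes were higher as well. All 29 tested major sperm protein genes rose (median 3.0), with a sum of 4409 and 4605 CPM in *mec-3(unk206)*, against 230 and 969 CPM in WT. The msp genes are close copies of each other, so their reads can be split or lost in counting, and single members are uncertain. Of 43 tested other sperm genes 41 rose and 1 fell (median 2.41). *ssp-31* had 22.6 and 26.1 CPM in *mec-3(unk206)*, against 1.20 and 1.82 CPM in WT (4.07, SE 0.28, adjusted p = 0.0014), and the sperm phosphatase gene *gsp-3* 147 and 135 CPM, against 14.4 and 28.4 CPM in WT (2.79, SE 0.32). *spe-29* fell (-2.22, SE 0.40) with 0.246 and 0.310 CPM in *mec-3(unk206)*, against 1.20 and 1.56 CPM in WT, and *spe-48* was not called (-0.20). The call of *spe-29* rested on 6 and 8 counts in *mec-3(unk206)*, was lost without either of these libraries, and the gene overlaps *gon-1* on the opposite strand and separated the other libraries by kind. The major sperm proteins called higher were 9 without *mec-3(unk206)* library 1, 7 without library 2, 4 in the fit of 16 libraries and 0 in that of 8. For the other sperm genes these counts were 27, 21, 20 and 5.

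The vitellogenins, the yolk proteins that the intestine makes in adults, were above WT in every pairing of libraries, as were 40.3% of tested genes. *vit-1* had 1894 and 2034 CPM in *mec-3(unk206)*, against 323 and 476 CPM in WT (2.36, SE 0.25, adjusted p = 0.0015), and *vit-4* 996 and 974 CPM, against 213 and 354 CPM in WT (1.87, SE 0.27). *vit-2* (2.23, SE 0.49) and *vit-3* (1.29, SE 0.30) also rose, and *vit-5* (1.87, SE 0.76) and *vit-6* (1.40, SE 0.51) did not pass. The sum of the 6 genes was 39098 and 33307 CPM in *mec-3(unk206)*, against 5675 and 17345 CPM in WT. 2 of the 4 calls remained without *mec-3(unk206)* library 1 and 2 without library 2, 1 in each of the fits of 16 and of 8 libraries, and 6 were called without WT library 1 or without WT library 2.

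**Figure D3:**
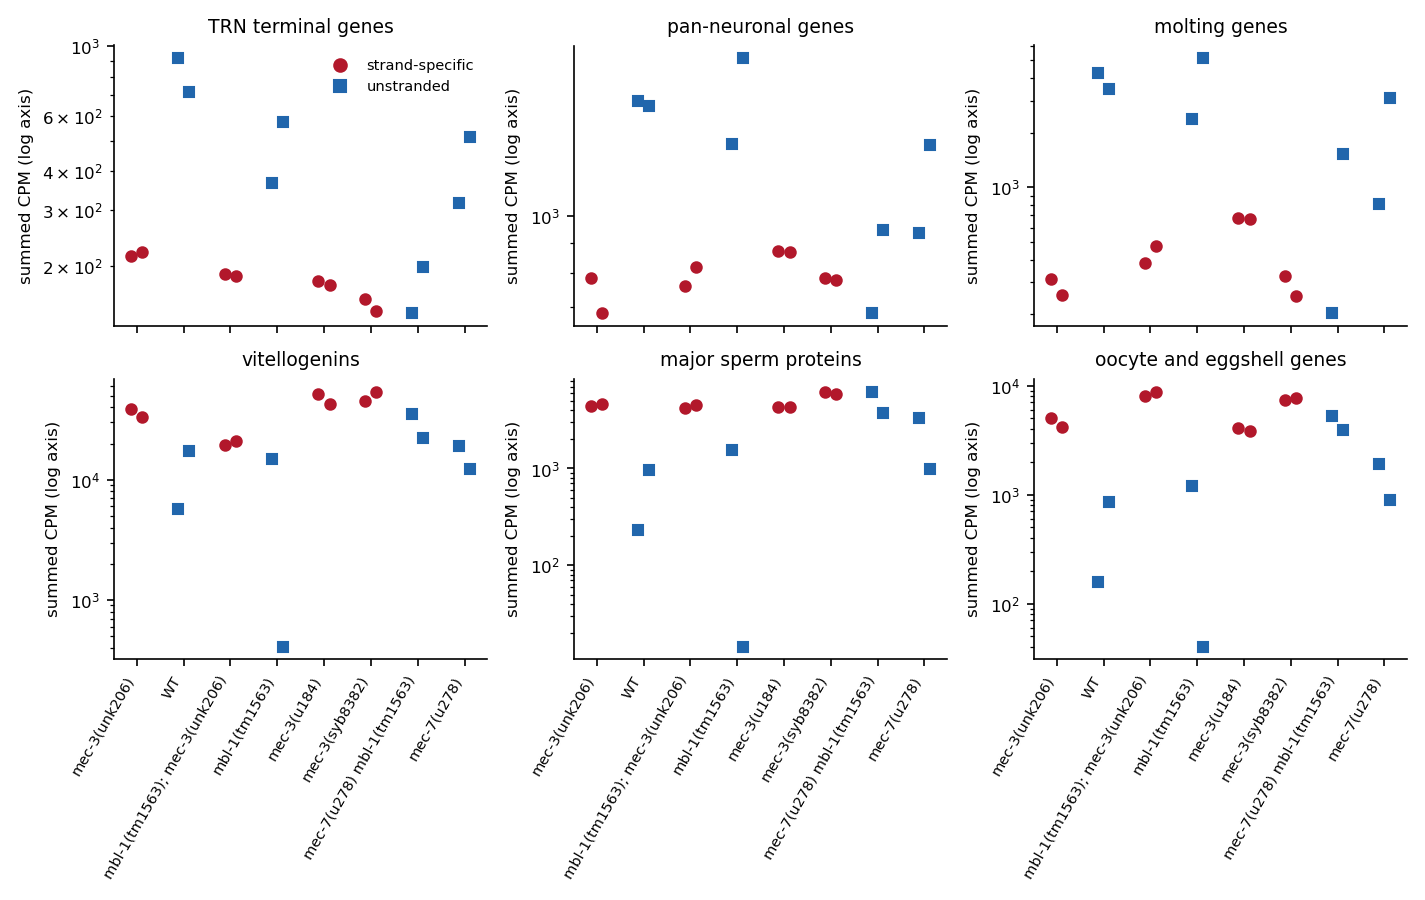
Summed CPM (log axes) of 6 gene groups in all 16 libraries, with 1 point per library (circles strand-specific, squares unstranded). The 8 strand-specific libraries lie closer together in each panel than the 8 unstranded ones: major sperm proteins ran between 14.5 and 6089 CPM in the 6 unstranded libraries other than WT, and between 4239 and 6213 CPM in the 6 strand-specific ones other than *mec-3(unk206)*.

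The intestine showed lower levels of several defining genes. Of 15 intestinal genes 8 fell and 2 rose (median -0.93). *elt-2*, the GATA factor of the intestine, had 36.1 and 30.4 CPM in *mec-3(unk206)*, against 71.7 and 71.5 CPM in WT (-1.05, SE 0.18), and its paralog *elt-7* 8.58 and 7.04 CPM, against 22.5 and 23.4 CPM in WT (-1.50, SE 0.21). The ferritin gene *ftn-1* was lowest, at 1.11 and 1.55 CPM, against 8.08 and 14.4 CPM in WT (-3.0, SE 0.38, adjusted p = 0.0019). The metallothionein gene *mtl-1* rose, with 9.04 and 3.56 CPM in *mec-3(unk206)*, against 0.261 and 0.988 CPM in WT (3.39, SE 0.69), and it also separated the other libraries by kind. *mtl-2* rose by 0.98 (SE 0.23), a call that was lost without either *mec-3(unk206)* library and in the fits of 16 and of 8 libraries. *mtl-1* was not called without library 1. Without *mec-3(unk206)* library 1, 2 were lower and none higher, and without library 2, 1 was lower and 1 higher, *ftn-1* being called in both.

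Genes of propionate breakdown and of the vitamin B12-dependent methionine cycle were lower or not called. Of 16, all tested, 11 fell (median -1.22). *sams-1*, the S-adenosylmethionine synthetase, had 252 and 314 CPM in *mec-3(unk206)*, against 2291 and 1746 CPM in WT (-2.79, SE 0.28, adjusted p = 0.0015). *metr-1*, the methionine synthase, had 86.4 and 97.2 CPM, against 977 and 386 CPM in WT (-2.86, SE 0.49), and *acdh-1*, the first enzyme of the propionate shunt, 277 and 227 CPM, against 4158 and 1192 CPM in WT (-3.39, SE 0.63). The WT libraries lay 2-fold or more apart for *metr-1* and *acdh-1*, and *acdh-1* also separated the other libraries by kind. *sams-1* alone of the 11 was called without *mec-3(unk206)* library 1 and without library 2.

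Muscle genes were close between the strains, with 8 of 34 lower, 3 higher and a median of -0.21. The body wall myosin gene *unc-54* had 1556 and 1196 CPM in *mec-3(unk206)*, against 2754 and 4938 CPM in WT (-1.41, SE 0.32). *unc-52*, the perlecan of muscle attachment, had 335 and 333 CPM, against 1011 and 997 CPM in WT (-1.53, SE 0.19), and the troponin C gene *tnc-2* rose, at 14.5 and 21.3 CPM, against 3.96 and 4.05 CPM in WT (2.21, SE 0.28). Of these calls 1 lower and 1 higher remained without *mec-3(unk206)* library 1, and 1 higher without library 2, *tnc-2* being called in both.

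Immune and lectin genes included members that rose and members that fell. Of 25 tested innate response genes 11 fell and 4 rose (median -1.05), and of 120 tested C-type lectins 38 fell and 39 rose (median 0.05), 31.7% and 32.5% of the lectins and so close to the 30.3% and 31.9% of all genes. The lysozyme gene *lys-7* had 203 and 197 CPM in *mec-3(unk206)*, against 22.9 and 26.3 CPM in WT (3.08, SE 0.19, adjusted p = 0.0014), whereas *lys-5* had 0.616 and 0.348 CPM, against 13.9 and 10.7 CPM in WT (-4.61, SE 0.40). *irg-7*, a zona pellucida domain gene of the intestinal response, had 1624 and 1413 CPM, against 9249 and 11242 CPM in WT (-2.69, SE 0.25). *clec-26* rose, at 9.24 and 9.44 CPM, against 0.417 and 0.468 CPM in WT (4.44, SE 0.32), and *clec-70* fell, at 0.411 and 0.348 CPM, against 6.51 and 7.59 CPM in WT (-4.14, SE 0.33). *clec-26* and the innate response gene *dod-23* also separated the other libraries by kind. Without *mec-3(unk206)* libraries 1 and 2 in turn, 4 and 4 innate response genes and 18 and 13 lectins were lower, and 4 and 3 and 20 and 18 were higher.

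Stress, lipid-binding and core cellular genes showed few or mixed calls. Of 8 tested heat shock genes *hsp-43* (1.71, SE 0.28) and *hsp-70* (1.22, SE 0.39) rose, 1 call remaining without *mec-3(unk206)* library 1 and 0 without library 2. *hsp-16.2* had 55.0 and 61.5 CPM in *mec-3(unk206)*, against 11.8 and 38.0 CPM in WT (1.31, adjusted p = 0.055). Of 7 tested fatty acid and retinol binding proteins 3 fell, led by *far-3*, at 3.57 and 3.99 CPM, against 29.5 and 24.01 CPM in WT (-2.77, SE 0.25), a gene whose exons overlap those of *far-5*. Of 79 cytosolic ribosomal protein genes 15 fell and 5 rose (median -0.43). The paralogs *rpl-11.1* and *rpl-11.2* differed in direction: *rpl-11.1* had 888 and 1036 CPM in *mec-3(unk206)*, against 261 and 300.1 CPM in WT (1.84, SE 0.20), and *rpl-11.2* had 669 and 554 CPM, against 2038 and 1684.5 CPM in WT (-1.56, SE 0.24). Of the ribosomal protein genes called lower none was called without *mec-3(unk206)* library 1 or 2, and 2 of those higher were in each case. Of 31 tested histone genes, which belong to near-identical families, 20 fell and 5 rose (median -1.25), and 8 and 3 were lower without libraries 1 and 2.

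Of 12 mitochondrially encoded protein genes 6 fell and 2 rose. ND2 had 0.575 and 1.55 CPM in *mec-3(unk206)*, against 135 and 114.8 CPM in WT (-6.81, SE 0.48, adjusted p = 0.0014), and ND3 had 0.411 and 0.890 CPM, against 49.2 and 58.0 CPM in WT (-6.28, SE 0.36). ND2 lay between 0.882 and 2.28 CPM in the other 6 strand-specific libraries. In the other 6 unstranded ones it lay between 94.1 and 306 CPM. Its level thus followed the kind of library, and equally the presence of a *mec-3* mutation, in all 8 strains. ND3, ATP6 (-2.0, SE 0.29), COX3 (-1.70, SE 0.27) and CYTB (-1.24, SE 0.25) also separated the other libraries in this way, and COX2 (-1.15, SE 0.25) did not. ND5 (1.21, SE 0.38) and ND4L (2.49, SE 0.83) rose and did not separate the other libraries. The counts were 3 lower and 1 higher without *mec-3(unk206)* library 1, and 4 and 0 without library 2.

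Genes often used for reference were closer to WT. *ama-1* (0.27, SE 0.20), *cdc-42* (-0.34, SE 0.19) and *tba-1* (-0.48, SE 0.25) did not pass the test, and *pmp-3* had 47.7 and 42.02 CPM in *mec-3(unk206)*, against 88.8 and 62.2 CPM in WT (-0.71, SE 0.25, adjusted p = 0.049), a call that was lost without either *mec-3(unk206)* library, without WT library 1 and in 5 other alternatives, among them RLE size factors and other filters on low counts. *ama-1* separated the other libraries by kind.

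The largest rises among protein-coding genes without overlapping neighbours were of genes with at most 2.96 CPM in WT. A ranking by fold change favours genes with such low levels. F26G5.1, at V:4975478-4977502, had 5.34 and 4.41 CPM in *mec-3(unk206)*, against 0 and 0.052 CPM in WT, or 244 counts against 1, a ratio of 187 (exact 95% binomial interval 33.2 to 7408). F14H3.4 and T05E12.3 had ratios of 69.7 (23.6 to 340) and 62.8 (21.2 to 307). R09E10.2, at IV:10317563-10318299, had 56.6 and 60.6 CPM in *mec-3(unk206)*, against 0.208 and 1.20 CPM in WT (6.44, SE 0.56), and *dod-23* had 65.6 and 78.4 CPM, against 0.938 and 2.96 CPM (5.27, SE 0.48). *nspa-8*, the lectin gene *clec-223*, W02D9.6, Y49F6C.8 and E02H4.6 made up the 10, with log2 fold changes between 4.98 and 5.66. In the *mbl-1* background all 10 had the same sign, but 5 did not pass the test: R09E10.2, W02D9.6, *dod-23*, Y49F6C.8 and E02H4.6. *nspa-8* and *dod-23* also separated the other libraries by kind, and Y49F6C.8 was not called without *mec-3(unk206)* library 2.

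The largest falls reached further. D1014.6, at V:8121168-8123470, had 1 and 0 counts in *mec-3(unk206)*, against 1320 and 433 in WT, lower by a ratio of 2290 (410 to 90490). Its neighbour D1014.7 had 0.288 and 0.426 CPM, against 54.6 and 18.6 CPM in WT (-6.62, SE 0.73). On chromosome I, ZK1025.4 had 1 count in all in *mec-3(unk206)* and 360 in WT, lower by a ratio of 470 (83.9 to 18620), and ZK1025.3 (-5.72, SE 0.22) and *bah-1* (-6.07, SE 0.25), a gene needed for bacterial biofilm to attach to the cuticle, also fell. These chromosome I genes were also below WT in both *mec-7(u278)* strains, which have no *mec-3* mutation. *bah-1* had 41.3 and 39.9 CPM in WT and 2.34 and 8.21 CPM in *mec-7(u278)*. In *mec-7(u278)* *mbl-1(tm1563)* it had 0.928 and 6.44 CPM, D1014.6 0.371 and 22.8 CPM, and BE0003N10.6 3.49 and 97.5 CPM. In *mec-7(u278)* D1014.6 had 50.6 and 35.8 CPM, and BE0003N10.6 161 and 166 CPM. T28D9.4 was lower by a ratio of 177 (48.5 to 1469). BE0003N10.6, F30H5.3, F54D10.8 and H17B01.2 completed the 10, with log2 fold changes between -6.26 and -5.36, and all 10 kept their call without any 1 library. In the *mbl-1* background all 10 had the same sign and 7 passed the test. T28D9.4, with no count in the double mutant, F30H5.3 and H17B01.2 did not. T28D9.4 had 10.3 and 1.54 CPM in *mbl-1(tm1563)*. In the strains with other *mec-3* alleles it had 23.6 and 24.2 CPM (*mec-3(u184)*) and 35.7 and 34.6 CPM (*mec-3(syb8382)*).

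The same allele in animals without MBL-1 gave a comparison with no shared libraries but with the same split of library kinds. Of 15152 genes tested between the double mutant and *mbl-1(tm1563)*, 5900 (38.9%) were called, 2410 (15.9%) higher and 3490 (23%) lower. None was called without library 1 or without library 2 of the double mutant, and 12130 and 10555 were called without library 1 or library 2 of *mbl-1(tm1563)*, whose replicates differed by over 2-fold for 3081 genes. Of 14796 genes tested in both, called or not, 13199 had the same sign. Of the 4685 among them called higher in *mec-3(unk206)* against WT, 4559 had the same sign and 1691 were also called higher, while 11 were called lower. Of 4521 called lower, 4472 had the same sign and 3000 were also called lower, while 1 was called higher. The TRN terminal genes had a median of -1.97 in the *mbl-1* background, with 12 of 16 lower and *mec-15* higher (2.13), and the fate factors a median of -1.71, with 7 of 10 lower. The molting genes had a median of -3.19 with 11 of 14 lower, and the germline genes a median of 2.48 with 3 of 23 higher. Few calls were made there in the other groups that rose against WT. Called higher were 0 of 29 major sperm proteins (median 2.48), 1 of 43 other sperm genes (1.81), 1 of 18 oocyte and eggshell genes (3.95) and 0 of 6 vitellogenins (2.10). Of 137 cuticle collagens 70 were lower and 3 higher. Whether the difference between strains with and without *unk206* changed with the background was tested as an interaction term. Of 15661 genes 3 (0.0192%) passed: C09B8.4, *acdh-2* and *asp-12*. Without adjustment 1432 genes had p under 0.05, and DESeq2 called 545.

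**Figure D4:**
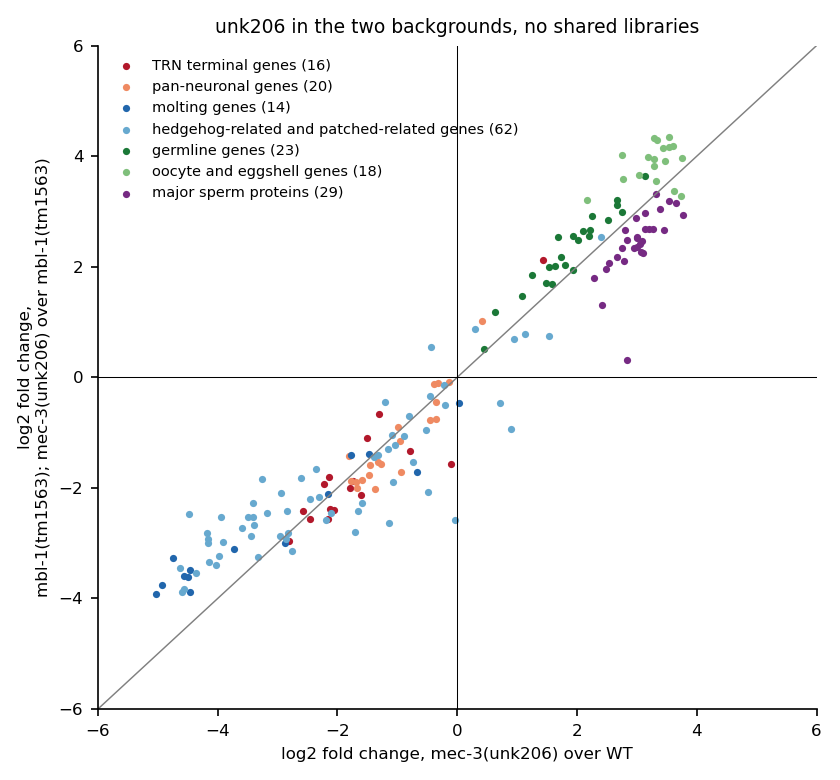
Log2 fold change in the *mbl-1* background (double mutant over *mbl-1(tm1563)*, vertical) against that of *mec-3(unk206)* over WT (horizontal), with 1 point per gene of 7 lists and the line of equal values. Points of the TRN terminal genes lie at lower left with medians of -1.97 and -1.92, and both axes carry the same split of strand-specific against unstranded libraries.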

How the data were processed

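Whole L4 animals of 8 strains gave 2 RNA libraries each, which were read in pairs on the DNBSEQ platform. The authors aligned the reads to WBcel235 with STAR 2.7.10 and deposited, for each library, whole-number counts of reads per gene (unstranded and for each strand) without normalization, and the submitters' processing notes also name DESeq2. The unstranded count of 46778 genes was used. The 4 rows that name no gene (unmapped, multimapping, no feature, ambiguous) were left out, the largest of them holding 4.24% of reads in any library. Of the gene IDs 43818 had a symbol. Positions came from the Ensembl 115 annotation of WBcel235, and names of mitochondrial genes from RefSeq.

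Low genes were removed with filterByExpr, library sizes were scaled by TMM, and pairs of strains were tested with edgeR 4.0.16 (quasi-likelihood) in R 4.3.3 (4 libraries per comparison, Benjamini-Hochberg adjustment, threshold 0.05). The change with background of the difference between strains with and without *unk206* was an interaction term over 8 libraries. CPM were scaled over 16 libraries, and RPKM divide the mean CPM of a strain by exon length in kilobases. With 2 libraries against 2, an exact permutation test cannot go below 0.333, so only model-based p-values were used. Where a strain had 3 or fewer counts in all, the ratio of summed counts is given with its exact 95% binomial interval. The alternatives were RLE size factors, DESeq2 1.42.0, other filters on low counts, protein-coding genes or genes without exon overlap only, second-strand counts, the replicate number as a block, joint fits of 8 and 16 libraries, and each library left out in turn. The scripts were tested on simulated data.

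Named were all members of the lists of TRN terminal genes, fate factors, PVD, DLK-1, splicing factor, vitellogenin and reference genes, the 10 largest rises and 10 largest falls (protein-coding, called, groups not overlapping, at least 100 counts in each library of the higher group, no exon overlap), and of every other list the 4 members with the lowest adjusted p and the member with the highest mean CPM. Not all of them are described. Cell type and stage markers (among them *unc-104*, *unc-54*, *elt-2*, *dpy-7*, *rol-6*, *bli-1*, *gsp-3*, *oma-1*, *rme-2*, *gld-1* and *col-19*) were a further list. The other genes (*grd-3*, *grd-4*, *ptr-13*, *flp-17*, *flp-18*, *csr-1*, *nhr-23*, *nhr-25*, *spe-29*, *spe-48*, *mtl-1*, *mtl-2*, *tba-9*, *maco-1*, *unc-119*, C09B8.4, *acdh-2* and *asp-12*) were picked after their values were seen. The comparison, its gene lists and tests were chosen with earlier results of these data known.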

Additional observations from a re-analysis of the deposited data

Results flagged for a closer look

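For 3 genes the difference between strains with and without *unk206* changed with the *mbl-1* background, by the interaction term of edgeR. This term compares strains and does not isolate the allele. C09B8.4 had 61.4 and 61.4 CPM in *mec-3(unk206)*, against 2.81 and 1.72 CPM in WT, but 1.21 and 1.505 CPM in the double mutant, against 6.22 and 5.04 CPM in *mbl-1(tm1563)*. The difference of the log2 fold changes, *mbl-1* background minus WT background, was -6.94 (SE 0.44, adjusted p = 0.0259), and it passed in 9 of 17 alternatives. Its levels were thus opposite in direction, with no overlap of the strains in either background. *acdh-2*, an acyl-CoA dehydrogenase gene, had 123 and 101 CPM in *mec-3(unk206)*, against 28.2 and 23.8 CPM in WT, and 1.66 and 2.56 CPM in the double mutant, against 46.7 and 36.3 CPM in *mbl-1(tm1563)* (difference -6.55, SE 0.38, adjusted p = 0.0259). It also changed direction and passed in 8 of 16 alternatives. Both genes varied within another strain: in the libraries of *mec-7(u278)* *mbl-1(tm1563)* C09B8.4 had 1.11 and 19.9 CPM and *acdh-2* 2.45 and 48.9 CPM. *asp-12*, an aspartyl protease gene, had 10.2 and 10.3 CPM in *mec-3(unk206)*, against 160 and 130 CPM in WT, and 2.06 and 2.07 CPM in the double mutant, against 228 and 219 CPM in *mbl-1(tm1563)* (difference -3.07, SE 0.21, adjusted p = 0.0323). *asp-12* was lower in the strain with *unk206* in both backgrounds and passed in 10 of 17 alternatives. Its level was also low in strains without a *mec-3* mutation. The *mec-7(u278)* libraries held 5.36 and 6.34 CPM of it, and those of *mec-7(u278)* *mbl-1(tm1563)* held 7.17 and 8.62 CPM. Low *asp-12* was thus not limited to strains with *unk206*, and its cause was not tested. Without any 1 library of *mec-3(unk206)*, WT or the double mutant no gene passed, while 1353 did without library 1 of *mbl-1(tm1563)*. The kind of library was split in the same way in both backgrounds. An offset between the kinds that is equal in both on the log2 scale cancels in this term. The part of any other effect of library kind, or of stage, was not tested. *col-19* had 669 and 7.91 CPM in the libraries of *mbl-1(tm1563)*.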

How the results depend on the processing

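For *mec-3(unk206)* against WT, the count of called genes (9409) ranged between 3019 and 10942 with 1 library left out, and stayed within 1.5 times of it under the other alternatives. The share of higher among called genes, 51.3%, became 40.1% in the fit of 8 libraries and 43.2% in that of 16. For the double mutant against *mbl-1(tm1563)*, 5900 calls became 9158 with DESeq2, 3658 with genes without exon overlap only, and between 0 and 12130 with 1 library left out. For the interaction, 3 calls became 545 with DESeq2 and between 0 and 1353 with 1 library left out. Called genes that also separate the other libraries by kind, 860, became 557 with genes without exon overlap only and between 256 and 969 with 1 library left out. Genes without exon overlap were fewer genes tested, and a library left out is fewer samples. The cause of the other shifts was not tested.

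The file numbers do not pair libraries across strains by any label, and the correlation of replicate deviations between strains was 0.0291 and, in the *mbl-1* background, 0.059. With the replicate number as a block, 4513 genes were higher and 4189 lower in *mec-3(unk206)* against WT, and 0 passed in each of the double mutant comparison and the interaction.

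The log2 ratio of the TRN to the pan-neuronal sum, *mec-3(unk206)* over WT, was -0.82 and became -0.22 without *mec-7* and *mec-12*, an alternative chosen after seeing the data. Of 406 medians of the 29 gene lists under 14 alternatives 354 moved by less than their spread over library pairs, 51 by more, and 1 reversed: that of the insulin-like peptides, 1.34, was -0.65 with at least 10 counts in every library, where 7 members were left. Of the 194 called genes among those named by the rules, the cell type markers and those picked after their values were seen, none reversed. 192 were called with RLE size factors and with DESeq2, 163 in the fit of 16 libraries, 155 in that of 8, 137 without *mec-3(unk206)* library 1 and 121 without library 2. The low counts of TRN genes such as *mec-3* (30 to 55 per library) limit their precision more than that of *mec-7*.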
